A study of Homo sapiens with 6 samples.

Results

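The proteasome subunit genes described here are the protein-coding genes whose symbols begin with PSMA, PSMB, PSMC or PSMD and a number, or are PSME1 to PSME4. PSMB8, PSMB9 and PSMB10, which encode the immunoproteasome subunits, were left out of the set. The pattern found 41 genes of the 34905 with transcripts in the files, and 39 of them had enough counts to be tested among 14497 genes. PSMA8, a testis form of a core subunit, was at 0 in all libraries, and PSMB11, a thymus form of a catalytic subunit, had 1 estimated count in the library labelled A5-res replicate 2 and 0 in the others. PSMC3IP matches the pattern but encodes a recombination factor, so 40 of the 41 genes belong to the proteasome.

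The proteasome degrades proteins marked with ubiquitin. Its core particle is a barrel in which outer rings of alpha subunits (PSMA genes) gate the entry and inner rings of beta subunits (PSMB genes) hold the proteolytic sites. The regulatory particle caps the barrel. Its base contains a ring of ATPases (PSMC genes) that unfold the substrate, and its lid contains the enzyme that removes the ubiquitin chain. In blood cells interferon induces PSMB8, PSMB9 and PSMB10, which replace the catalytic beta subunits, and the products of the PSME genes can cap the core in place of the regulatory particle. When proteasome activity falls, the transcription factor NFE2L1 raises the transcription of proteasome genes through antioxidant response elements.

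The RNA, selected by its poly(A) tails, came from THP1, an established human line of monocytic acute myeloid leukaemia. The 6 libraries carry 3 labels with n = 2 each: shCtrl, given as wild-type, shA5, given as a knock-down of ALKBH5, and A5-res, given as an ALKBH5 rescue. All are the same line in the same medium, and the labels name neither the hairpin sequence nor the rescue construct. ALKBH5 encodes an enzyme that removes the m6A mark from RNA, and the design asks what changes when it is lost and restored.

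The 6 libraries held 14534386 to 24857373 estimated counts. ALKBH5 itself did not follow the labels. Its level was 14.6, 12.4 and 13.6 CPM (estimated counts scaled to the size of the library) in replicate 1 of shCtrl, shA5 and A5-res, against 1097, 1003 and 968 CPM in replicate 2 of the same labels. Every direction given for a label is therefore that of the libraries as labelled. The libraries also separated by replicate number across the transcriptome, with 45.4% of all genes called between numbers 2 and 1, and no label says what the number stands for. Of 11 myeloid markers 10 were tested, with summed levels of 2707 to 2961 CPM in the libraries numbered 1 and 2870 to 3254 CPM in those numbered 2. Of the 10, 2 were higher in number 2 (LYZ 0.52 and CD33 0.35 on the log2 scale), 3 lower (CD14 -0.72, MPO -0.70 and ITGAM -0.65), and 5 did not pass. Among markers of other cell types, all 6 erythroid and all 7 epithelial and fibroblast genes were under 1 CPM. Among the 8 markers of T and NK cells, 2 passed the low-count filter, CD3D and CD2 were at 0, and the sum was 22.4 to 25.2 CPM in number 1 and 18.8 to 23.1 CPM in number 2. Of 5 B cell genes 3 were tested, and the sum was 6.95 to 8.68 CPM in number 1 and 11.3 to 13.5 CPM in number 2. The part of cell state in the results was not tested. Nothing in the labels says that replicates were grown separately, and the p-values then reflect no more than the spread among the 6 libraries, which may be technical.

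Proteasome genes differed widely in level, also within the same ring. Levels between genes are given as the deposited TPM, which is scaled by transcript length, as a mean over all 6 libraries. It is summed over the transcripts of a gene, non-coding ones included, so it depends on how reads were shared among them. PSMB4, a structural beta subunit, was the most abundant at 681 ± 41.8 TPM (SD, n = 6), and its lowest library (631 TPM) lay above the highest of any other member. PSMA7 (456 ± 42.5 TPM) and PSMB1 (450 ± 9.85 TPM) followed with overlapping ranges, then the ubiquitin receptor PSMD4 at 414 ± 18.1 TPM. The alpha ring ran from 75.3 TPM for PSMA2 to 456 TPM for PSMA7, and the beta ring from 64.7 TPM for PSMB2 to 681 TPM for PSMB4. The ATPases ran from 45.2 TPM for PSMC4 to 276 TPM for PSMC1, and the lid from 52.4 TPM for PSMD14 to 268 TPM for PSMD8. The median was 181 TPM for the 14 tested core genes and 158 TPM for the 17 regulatory particle genes. The lowest proteasome genes tested were the assembly chaperone PSMD5 (11.6 ± 1.57 TPM), the activator PSME4 (21.4 ± 2.78 TPM) and the assembly chaperone PSMD10 (24.5 ± 8.32 TPM). The ranges of PSME4 and PSMD10 overlapped, whereas the highest library of PSMD5 (14.5 TPM) lay below the lowest of both.

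Between replicate numbers the beta ring stood lower in the libraries numbered 2, while most regulatory particle genes did not pass the test. Of the 39 members, 17 passed (adjusted p under 0.05 in edgeR), 15 lower and 2 higher in number 2, and 22 did not. The values of the numbers did not overlap in 22 members, against 57.7% of all genes. The count of calls is close to the 45.4% of all genes called, of which 22.6% of genes tested were lower and 22.8% higher. The core particle had 10 lower and 1 higher of 14, with a median log2 fold change of -0.30. The regulatory particle had 4 lower of 17 and a median of -0.16, and the median over all genes was 0.01. In such bulk libraries fewer cells with a transcript and less transcript per cell cannot be told apart. The core median was lower than the regulatory median under each label: -0.27 and -0.11 within shCtrl, -0.23 and -0.11 within shA5, and -0.45 and -0.17 within A5-res. Without shA5 replicate 1, or without shA5 replicate 2, 8 members passed, and PSMA1, PSMA2, PSMA3, PSMA6, PSMA7, PSMB4, PSMC4, PSMD3 and PSME3 did not. PSMA2 and PSMA6 also lost their calls without shCtrl replicate 1. PSMA4 and PSMC6 passed as higher without either shCtrl library, PSMD4 as lower without shCtrl replicate 2, and PSMD6 and PSMD12 as lower without either A5-res library. The regulatory median was -0.07 without shCtrl replicate 1 or without either A5-res library. With 1 library of a label left out, its partner is fitted by the label term, and the coefficient of number rests on the other labels. All fold changes between numbers below are number 2 against number 1 on the log2 scale with group as a covariate, followed by their standard error (SE).

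**Figure D1:**
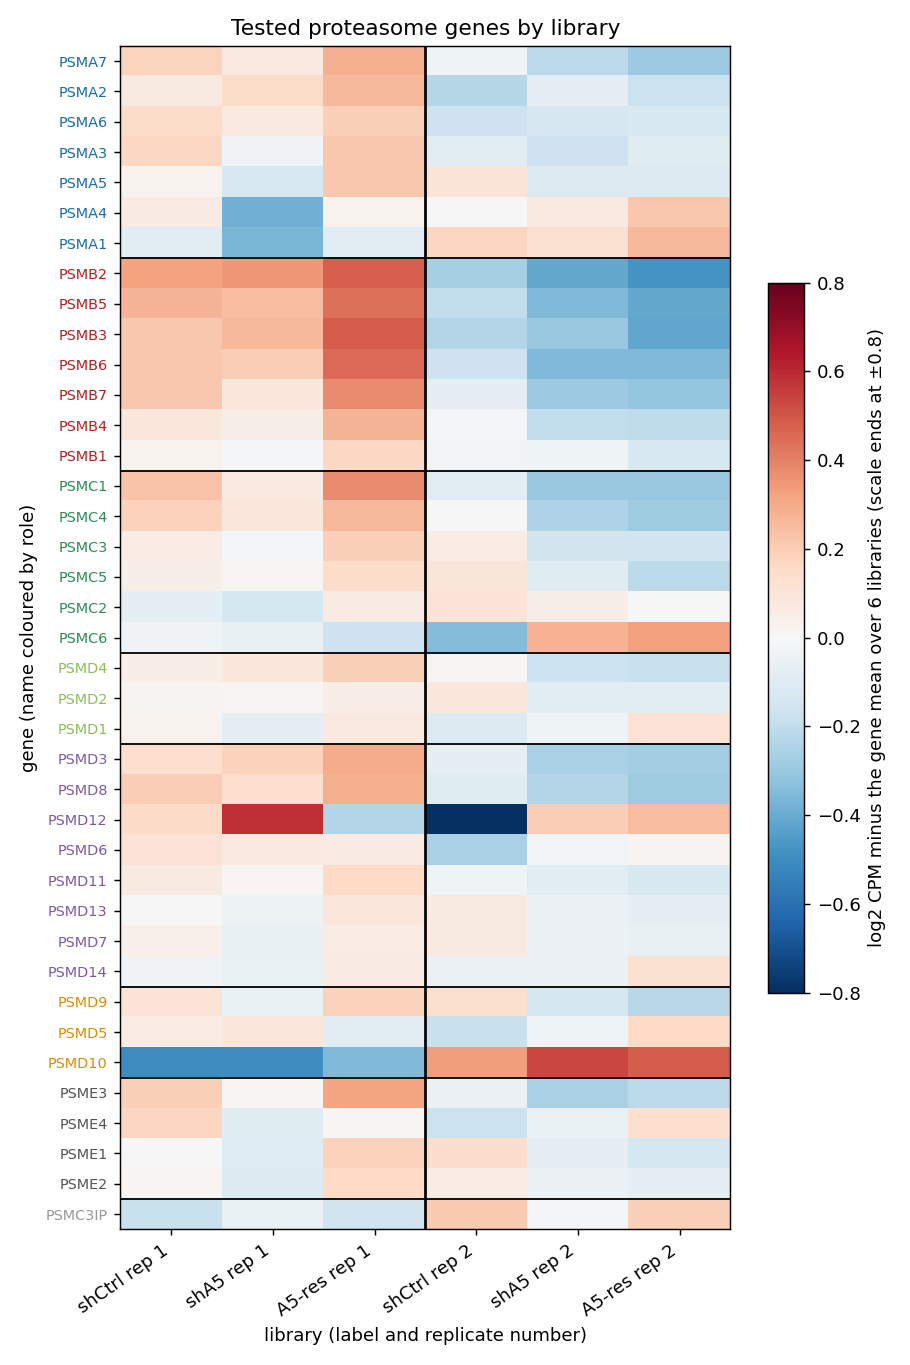
Each row is a tested gene, named in the colour of its role, and each column a library. Colour gives log2 CPM minus the gene's mean over the 6 libraries, and values past ±0.8 take the end colour. The beta ring rows from PSMB2 to PSMB7 are red in the 3 libraries numbered 1 and blue or near white in those numbered 2, PSMD10 is the reverse, and PSMD12 is lowest in shCtrl replicate 2.

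Promoter stretches of 5 members whose levels differed between the numbers are shown because transcription factors known to act on this family bind short elements in front of its genes. They come from the RefSeq table for GRCh38.p14, written 5′ to 3′ on the gene's strand, and lie before the start and outside every annotated exon. Capitals mark matches on either strand to TGACNNNGC (an antioxidant response element), CCAAT or CCGGAAG (an ETS-type element), and no matches overlap in the stretches printed. PSMB5 is at chr14:23035231-23035430 on the minus strand, PSMB3 at chr17:38752536-38752735 (plus), PSMD3 at chr17:39980597-39980796 (plus), PSMC1 at chr14:90256303-90256494 (plus) and PSMD10 at chrX:108091619-108091667 (minus). PSMB5, PSMB3, PSMD3 and PSMC1 were lower and PSMD10 was higher in number 2.
PSMB5: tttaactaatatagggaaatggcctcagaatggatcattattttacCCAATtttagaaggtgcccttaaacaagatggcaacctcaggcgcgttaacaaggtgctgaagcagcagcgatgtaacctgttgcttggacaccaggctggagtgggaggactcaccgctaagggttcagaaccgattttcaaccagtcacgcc
PSMB3: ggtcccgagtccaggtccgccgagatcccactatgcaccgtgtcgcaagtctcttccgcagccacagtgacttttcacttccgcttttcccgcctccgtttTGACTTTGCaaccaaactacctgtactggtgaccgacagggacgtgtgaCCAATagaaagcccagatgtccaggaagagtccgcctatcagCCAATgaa
PSMD3: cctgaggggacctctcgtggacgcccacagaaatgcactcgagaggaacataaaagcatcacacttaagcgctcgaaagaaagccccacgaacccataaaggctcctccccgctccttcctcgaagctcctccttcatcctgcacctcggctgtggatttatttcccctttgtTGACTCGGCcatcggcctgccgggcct
PSMC1: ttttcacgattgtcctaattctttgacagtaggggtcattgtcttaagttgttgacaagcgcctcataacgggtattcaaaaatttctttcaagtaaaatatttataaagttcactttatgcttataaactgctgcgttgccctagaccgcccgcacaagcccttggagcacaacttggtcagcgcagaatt
PSMD10: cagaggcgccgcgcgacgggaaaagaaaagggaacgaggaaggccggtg
The PSMB3 stretch holds an antioxidant response element and a pair of CCAAT boxes, that of PSMD3 an antioxidant response element and that of PSMB5 a CCAAT box. The stretches of PSMC1 and PSMD10 hold none of the 3 motifs, nor do those of PSMA6, PSMC4 and PSMB4, which were also lower and are not printed. Those of PSMD8 and PSMA3, also lower and not printed, hold CCAAT boxes. The stretches of PSMC4 and PSMD10 are short, at 90 and 49 bases. Over the longer windows counted below, PSMD10 and PSMD3 hold a CCAAT box and PSMC1, PSMA6 and PSMD8 an ETS-type element. In its window PSMC4 holds an antioxidant response element, and PSMB4 holds none of the motifs.

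Over the whole 300-base windows (250 bases before and 50 after the start), 36 of the 41 members had an entry. The antioxidant response element was in 12 of them (33.3%) and in 16.1% of the 27305 genes with an entry. The CCAAT box was in 19 (52.8%, against 39.7% of all genes) and the ETS-type element in 14 (38.9%, against 12.2%). The shares in core and regulatory genes, given without a test, were unequal. The CCAAT box was in 8 of 12 core genes (66.7%) and 8 of 16 regulatory particle genes (50%), while the ETS-type element was in 2 of 12 (16.7%) and 9 of 16 (56.2%). For the antioxidant response element the counts were 2 of 12 (16.7%) and 5 of 16 (31.2%). The core genes counted include PSMA8 and PSMB11, which were not tested. PSMA8 held an ETS-type element and PSMB11 a CCAAT box. PSMA7, PSMB1, PSMB6, PSMB7 and PSMD4 had no entry. Among members that were lower in number 2, 3 of 12 held an antioxidant response element (25%), and among those that did not pass 9 of 20 did (45%). For the ETS-type element the counts were 3 of 12 (25%) and 10 of 20 (50%), and for the CCAAT box 8 of 12 (66.7%) and 9 of 20 (45%). These splits were not tested. These matches describe letters in a window and no binding was measured.

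In the beta ring 6 of 7 genes were lower in number 2 (22.6% of all genes were), with a median of -0.58 and a range of -0.76 to -0.12. The 3 proteolytic subunits were among them. PSMB5, which carries the chymotrypsin-like site, was at 132, 130 and 148 CPM in shCtrl, shA5 and A5-res replicate 1, and at 95.1, 85.4 and 82.2 CPM in replicate 2 of the same labels. The numbers did not overlap, and the fold change was -0.64 (SE 0.09, edgeR adjusted p = 0.000558). PSMB6, the caspase-like subunit, was at 64.2, 63.4 and 75.6 CPM against 49.3, 43.3 and 43.3 CPM, a change of -0.58 (SE 0.10, edgeR adjusted p = 0.00177). PSMB7, the trypsin-like subunit, was at 121, 111 and 135 CPM against 99.0, 85.3 and 84.1 CPM, a change of -0.45 (SE 0.10, edgeR adjusted p = 0.00402). In all 3 the A5-res library was the highest of number 1, and the highest number 2 library was that labelled shCtrl.

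The non-catalytic beta subunits spanned the largest and the smallest changes of the ring. PSMB2 was at 165, 168 and 184 CPM in number 1 and at 110, 99.6 and 95.3 CPM in number 2, which is 1.70-fold lower (-0.76, SE 0.09, edgeR adjusted p = 0.000191). PSMB3 was at 88.4, 91.1 and 107 CPM against 64.9, 61.8 and 57 CPM (-0.64, SE 0.10, edgeR adjusted p = 0.001). Both showed a gap between the numbers wider than the spread within either. PSMB4, the most abundant member, was lower by a smaller amount, -0.27 (SE 0.09, edgeR adjusted p = 0.0367). Its call was lost with protein-coding transcripts only (edgeR adjusted p = 0.0531), with counts from TPM (0.0681), and without either A5-res library, where the change was -0.17. PSMB1 was at 237 to 255 CPM in number 2 and 257 to 290 CPM in number 1, without overlap, and did not pass the test (-0.12, SE 0.09, edgeR adjusted p = 0.271).

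The alpha ring was more mixed, with 4 lower (22.6% of all genes were) and 1 higher of 7 and a median of -0.23. PSMA1 was the only core gene that passed in the higher direction (22.8% of all genes did), at 136, 112 and 136 CPM in number 1 and 163, 158 and 173 CPM in number 2 (0.37, SE 0.08, edgeR adjusted p = 0.00581). The make-up of its transcripts differed between the numbers as well. Retained-intron transcripts took 14.7%, 17.3% and 12.6% of its estimated counts in number 1 and 4.26%, 4.60% and 5.98% in number 2. When gene counts were made from TPM and mean length, the change of PSMA1 was 0.14 and its call was lost (edgeR adjusted p = 0.232).

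The other alpha genes that passed were lower. PSMA7 was at 319, 297 and 344 CPM against 275, 243 and 230 CPM (-0.36, SE 0.09, edgeR adjusted p = 0.0104). PSMA2 was at 82.7, 87.1 and 94.5 CPM against 67.3, 74.6 and 69.9 CPM (-0.32, SE 0.09, edgeR adjusted p = 0.0137). PSMA6 was at 187, 178 and 193 CPM against 151, 154 and 156 CPM (-0.28, SE 0.08, edgeR adjusted p = 0.0165). In each the numbers were apart, with A5-res replicate 1 the highest library. PSMA6 lost its call when only protein-coding transcripts were counted (-0.09, edgeR adjusted p = 0.545), and its retained-intron share ran from 2.64% in A5-res replicate 2 to 25.1% in shCtrl replicate 2. PSMA3 passed at -0.23 (edgeR adjusted p = 0.0374) but under 5 of 14 alternatives only. It did not pass with DESeq2, with no low-count filter, with counts from TPM or when any library was left out. Its transcripts included retained introns at 27.3% to 37.3% of its counts in number 1 and 42.0% to 45.7% in number 2. PSMA4 (0.19, edgeR adjusted p = 0.151) and PSMA5 (-0.08, edgeR adjusted p = 0.54) did not pass and their numbers overlapped. The estimated counts of PSMA5 lay mostly in transcripts annotated as non-coding, with 10.7% to 18.6% in protein-coding ones.

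**Figure D2:**
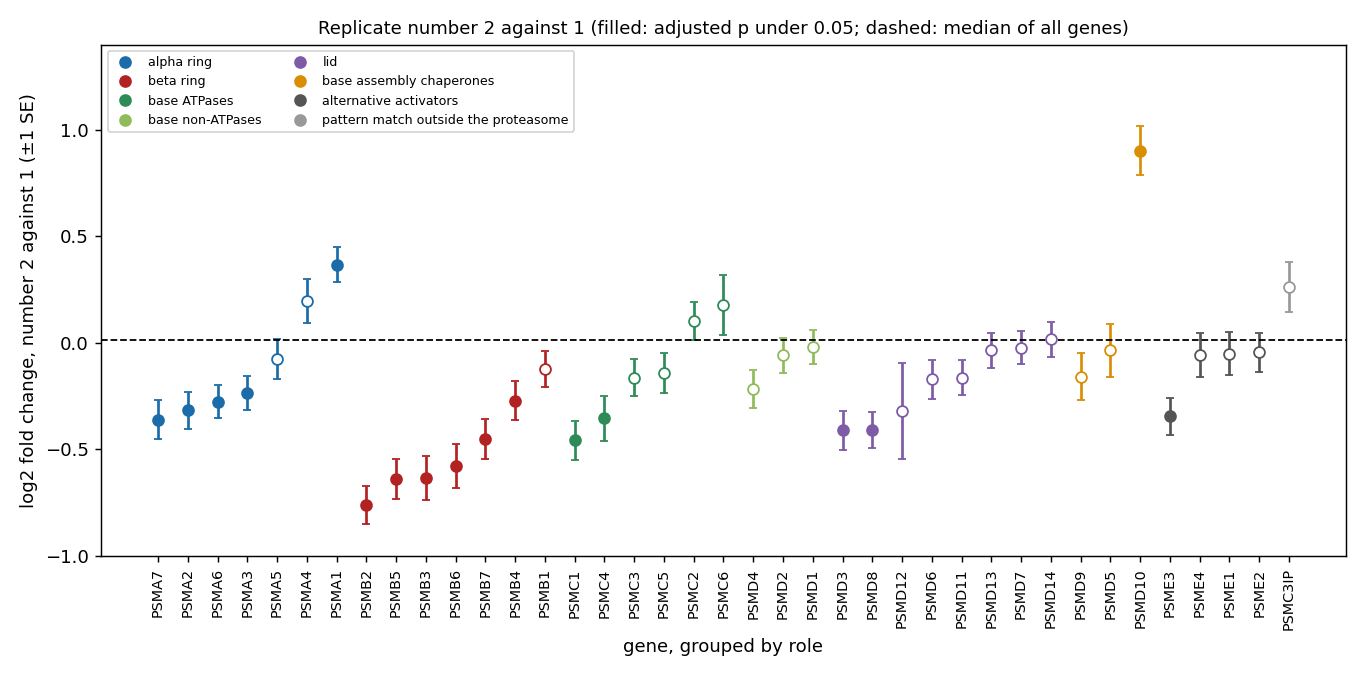
Points give the log2 fold change of replicate number 2 against 1 for each tested gene (bars, 1 SE), grouped and coloured by role. Filled points passed at an adjusted p under 0.05 and the dashed line is the median of all genes tested (0.01). The beta ring lies lowest, between -0.76 and -0.12, and PSMD10 lies highest at 0.90.

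In the regulatory particle 13 of 17 genes did not pass between the numbers, and the 4 lower ones are a share near the 22.6% of all genes that were lower. Of the 6 ATPases 2 were lower. PSMC1, in the ring that pulls in the substrate, was at 198, 179 and 220 CPM in number 1 and 160, 137 and 137 CPM in number 2 (-0.46, SE 0.09, edgeR adjusted p = 0.00329). PSMC4 was at 48.6, 45.7 and 51.2 CPM against 42.7, 36.1 and 35.2 CPM (-0.36, SE 0.10, edgeR adjusted p = 0.0198), and lost its call when protein-coding transcripts alone were counted (edgeR adjusted p = 0.167) or counts were made from TPM (0.0687). In both genes shCtrl replicate 2 lay nearest to the libraries numbered 1. PSMC3 was at 210, 201 and 230 CPM against 210, 182 and 181 CPM (-0.16, SE 0.09), and PSMC5 at 158, 155 and 170 CPM against 163, 143 and 132 CPM (-0.14, SE 0.09). The numbers overlapped in both and neither passed (edgeR adjusted p = 0.161 and 0.244). PSMC6 (0.18) and PSMC2 (0.10) did not pass either.

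None of the 3 non-ATPase subunits of the base passed. PSMD4, a receptor for ubiquitin chains, was at 362, 370 and 399 CPM in number 1 and 353, 311 and 309 CPM in number 2 (-0.22, SE 0.09, edgeR adjusted p = 0.0707). PSMD2, a large scaffold subunit, was at 395, 391 and 403 CPM against 412, 364 and 367 CPM (-0.06, SE 0.08, 95% interval -0.24 to 0.13). PSMD1, the other scaffold, was at 190, 177 and 197 CPM against 173, 183 and 202 CPM (-0.02, SE 0.08, 95% interval -0.20 to 0.16). The numbers were apart for PSMD4 and overlapped for both scaffolds. Of the 2 listed regulatory particle subunits without the PSM symbol, the ubiquitin receptor ADRM1 was lower (-0.58, edgeR adjusted p = 0.000525). The other, SEM1, differed by -0.04 (SE 0.10, edgeR adjusted p = 0.80), did not pass and overlapped between numbers. Of all genes, 22.6% were lower.

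Of the 8 lid genes 2 were lower, a share near the 22.6% of all genes, and the median was -0.17. PSMD8 was at 205, 197 and 218 CPM against 167, 152 and 147 CPM (-0.41, SE 0.08, edgeR adjusted p = 0.00376). PSMD3 was at 296, 306 and 332 CPM against 255, 225 and 222 CPM (-0.41, SE 0.09, edgeR adjusted p = 0.00519). Both encode structural subunits of the lid, and both fell in each label. PSMD11, another scaffold, was at 121, 116 and 128 CPM against 112, 108 and 106 CPM (-0.16, SE 0.08, edgeR adjusted p = 0.128), and PSMD6 at 101, 98.4 and 97.6 CPM against 77.8, 91.8 and 94.4 CPM (-0.17, SE 0.09, edgeR adjusted p = 0.148). Their numbers did not overlap, but the test did not call them. PSMD14, the deubiquitinating enzyme of the lid, differed by 0.02 (SE 0.08, 95% interval -0.17 to 0.20), PSMD7, its partner, by -0.02, PSMD13 by -0.04 and PSMD12 by -0.32 with the largest SE of all members, 0.23. With protein-coding transcripts only, PSMD13 passed as higher (0.36, edgeR adjusted p = 0.0456) and PSMD12 as lower (-0.70, edgeR adjusted p = 0.0146). PSMD12 also passed without either A5-res library (-0.72), and it was 0.09 without shCtrl replicate 1 and 0.04 without shCtrl replicate 2.

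Among the 3 chaperones that build the base only PSMD10 passed, as higher (22.8% of all genes were higher), with the largest change of the set. PSMD10 (gankyrin), which holds PSMC4 during assembly, was at 12.3, 12.3 and 13.6 CPM in number 1 and 21.9, 25.2 and 24.3 CPM in number 2. The number 2 libraries were 1.87-fold higher (0.90, SE 0.12, edgeR adjusted p = 0.000289), and the numbers were far apart. PSMD9 was at 41.2, 36.7 and 43.3 CPM against 41.6, 34.5 and 32.7 CPM (-0.16, SE 0.11), and PSMD5 at 24.2, 24.7 and 21.8 CPM against 20.5, 22.7 and 25.9 CPM (-0.04, SE 0.12). Both chaperones overlapped between numbers and did not pass (edgeR adjusted p = 0.271 and 0.84). Over 99% of the counts of PSMD10 were in protein-coding transcripts in number 2 and 97.2% to 100% in number 1.

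Of the 4 activators, only PSME3 passed, as lower (22.6% of all genes were lower). PSME3 encodes the nuclear activator, and was at 236, 209 and 257 CPM in number 1 and 200, 173 and 179 CPM in number 2 (-0.34, SE 0.09, edgeR adjusted p = 0.0101). The interferon-inducible pair PSME1 (125, 116 and 142 CPM against 138, 119 and 113 CPM) and PSME2 (80.4, 73.7 and 88.7 CPM against 83.0, 76.8 and 75.3 CPM) differed by -0.05 and -0.04, with SE 0.10 and 0.09. PSME4, a large activator of the nucleus, was at 104, 86.3 and 93.5 CPM against 82.2, 89.1 and 101 CPM (-0.06, SE 0.10). The numbers of these 3 genes overlapped. PSMC3IP, which is no subunit, was at 22.1, 24.2 and 22.4 CPM against 29, 24.9 and 28.7 CPM (0.26, SE 0.12, edgeR adjusted p = 0.0916).

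The immunoproteasome subunits that replace the 3 catalytic ones did not pass between numbers. PSMB8, which replaces PSMB5, was at 36.5, 34.4 and 39.9 CPM against 38, 33.6 and 32.5 CPM (-0.09, SE 0.11). PSMB9, which replaces PSMB6, was at 8.32, 7.43 and 8.73 CPM against 9.68, 7.61 and 6.64 CPM (-0.05, SE 0.16), and PSMB10, which replaces PSMB7, at 120, 116 and 126 CPM against 133, 126 and 127 CPM (0.09, SE 0.08). The numbers overlapped for PSMB8 and PSMB9 but not for PSMB10, which was slightly higher in number 2. Of all genes, 57.7% did not overlap. The log2 ratio of PSMB5 to PSMB8 in CPM was 1.88 ± 0.03 in number 1 and 1.33 ± 0.01 in number 2 (SD, n = 3), a difference of -0.55 (two-sided exact permutation p = 0.1). The difference was -0.53 for PSMB6 over PSMB9 and -0.55 for PSMB7 over PSMB10. Each had the same exact permutation p of 0.1, the smallest that 3 against 3 allows. PSMB5, PSMB6 and PSMB7 were already known to be apart between the numbers, so these p-values add no support. The permutation did not use the labels. In each pair the ratio was lower in all 3 libraries numbered 2. Per length, PSMB5 stood at 135 TPM against 48.2 TPM for PSMB8, PSMB6 at 111 against 19.1 TPM for PSMB9, and PSMB7 at 172 against 159 TPM for PSMB10. PSMB8 and PSMB9 lie in the major histocompatibility region, whose alternative haplotype copies may be among the transcripts left out, so their counts may be partial.

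**Figure D3:**
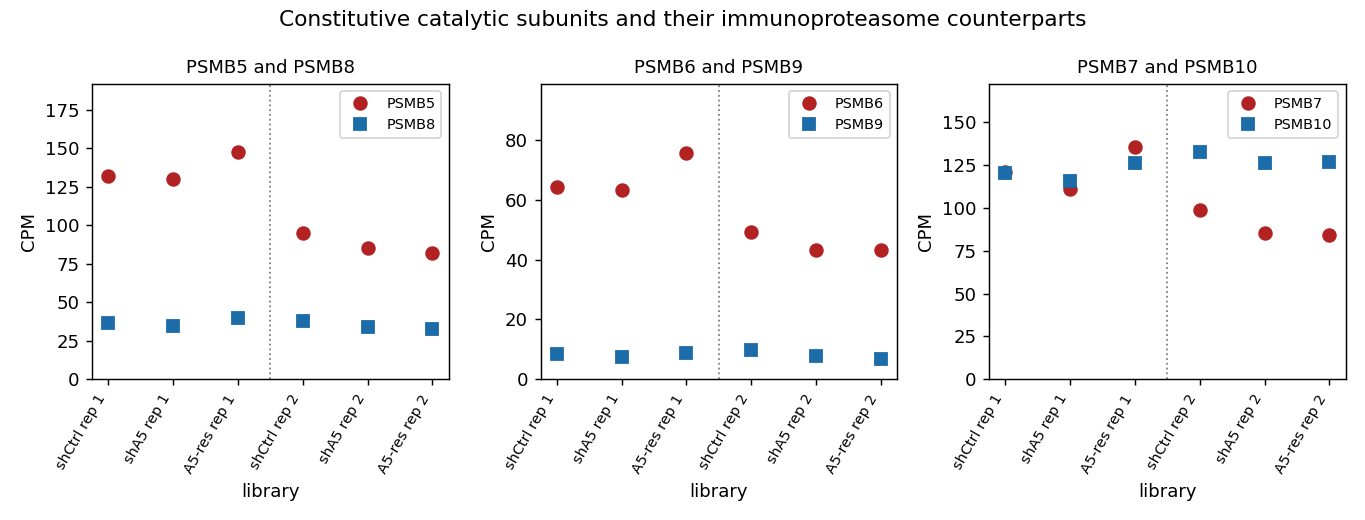
Each panel gives CPM by library (axis from 0) for a constitutive catalytic subunit (red circles) and its immunoproteasome counterpart (blue squares), with a dotted line between replicate numbers 1 and 2. The red points drop from number 1 to number 2, PSMB5 from 130 to 148 CPM down to 82.2 to 95.1 CPM, while the blue points keep overlapping ranges for PSMB8 and PSMB9.

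Other genes of the pathway went in both directions between the numbers. They are given as lists chosen by function, and 22.8% of all genes tested were higher and 22.6% lower. Of 6 factors that assemble the core, PSMG3 was lower (-0.58, edgeR adjusted p = 0.00144) and 5 did not pass. Of 11 proteasome-associated factors 2 were lower, among them the core-binding regulator PSMF1 (-0.50, edgeR adjusted p = 0.00402). Of 8 ubiquitin and VCP genes 3 were lower and 1 higher. UFD1 (-0.46) and NPLOC4 (0.41), which together bring substrates to the VCP unfoldase, differed in opposite directions.

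The genes of the NFE2L1 axis gave 2 higher and 2 lower of 7 (22.8% of all genes were higher and 22.6% lower). DDI2, the protease that cleaves NFE2L1 into its active form, was at 39.2, 37.7 and 32.7 CPM in number 1 and 63.9, 74.5 and 73.7 CPM in number 2 (0.96, SE 0.11, edgeR adjusted p = 0.000153). NFE2L1 itself was at 249, 252 and 259 CPM against 355, 318 and 320 CPM (0.38, SE 0.08, edgeR adjusted p = 0.00465). Both were higher in all 3 libraries numbered 2. MAFF, a small partner of NFE2L1, was lower (-0.76, edgeR adjusted p = 0.00223), as was MAFG (-0.22, edgeR adjusted p = 0.0395). Of 8 interferon-stimulated genes 7 were higher in number 2, among them IFIT2 (2.37), IFIT3 (1.85) and IFIT1 (1.78), while IRF1 differed by -0.16 and did not pass. Their part in the proteasome values was not tested.

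Base composition moved with the differences between numbers. GC content and length were those of the gene's transcript with the most estimated counts over all libraries, whatever its annotated type. In PSMD12, PSMD13, PSMA4 and PSMA5, for example, that transcript is not annotated as protein-coding. Across the 39 tested members, Spearman's rho between the fold change and the GC content of that transcript was -0.45, so members rich in GC tended to be lower in number 2. It was -0.57 over the 14 core genes, -0.59 over the 17 regulatory particle genes and -0.19 over 14472 genes. With transcript length rho was 0.21 over the members, -0.08 over the core genes, 0.31 over the regulatory particle genes and 0.12 over all genes. These are descriptions across genes of the same 6 libraries, and the part of base composition or transcript length in the results was not tested. The median GC content was 47.3% for the core and 47.9% for the regulatory particle genes (49.4% over all genes). The median transcript length differed more, at 988 bases for the core and 1590 for the regulatory particle genes (2851 over all genes).

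Between the labels, no member passed in any comparison. For shA5 against shCtrl, 0 of 39 members were called in edgeR (0% of all genes), with DESeq2 or with limma-voom, and 0 had an unadjusted p under 0.05. With the replicate number as a block, 0 were called and 1, PSMD12, had an unadjusted p under 0.05 (0.0069% of all genes were called). The member median was -0.09 and that of all genes -0.03, with 6 of 39 members positive (43.7% of all genes) and 11 without overlap between labels (17.5% of all genes). The core median was -0.06 within number 1 and -0.11 within number 2, and the regulatory median -0.04 and -0.12.

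PSMD12, a lid subunit, varied most between the labels. It was at 65.9, 89.2 and 50.3 CPM in shCtrl, shA5 and A5-res replicate 1 and at 30.9, 68.1 and 70.3 CPM in replicate 2. The shCtrl replicate 2 library was the lowest and shA5 replicate 1 the highest. For shA5 against shCtrl the blocked difference was 0.74 (SE 0.27, 95% interval 0.13 to 1.35, edgeR adjusted p = 0.978), with 0.44 within number 1 and 1.14 within number 2. The retained-intron transcript PSMD12-208 took 42.3% to 57.5% of its counts, so the gene sum is not a measure of its coding messenger alone. The next members by p were PSME3 at -0.19 (SE 0.11) and PSMC1 at -0.19 (SE 0.11).

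For A5-res against shA5, 0 members were called with or without the block (0% of all genes), with DESeq2 or with limma-voom, and 0 had an unadjusted p under 0.05. The median was 0.08 against 0.01 over all genes, 37 of 39 members were positive (52.1% of all genes, 51.1% with the block) and 4 did not overlap (11.9%). Of the 39 members, 34 were positive within number 1 and 16 within number 2 (7346 and 7378 of 14497 genes). Within number 1 the core median was 0.22 and the regulatory median 0.13, and within number 2 both were -0.01. The members with the smallest blocked p were PSMA4 at 0.27 (SE 0.13, 95% interval -0.01 to 0.55), PSMA1 at 0.20 (SE 0.10) and PSME3 at 0.18 (SE 0.11), each with an edgeR adjusted p of 1. PSMA4 was at 164, 120 and 160 CPM in shCtrl, shA5 and A5-res replicate 1 and 157, 166 and 182 CPM in replicate 2, so that shA5 replicate 1 was the low library.

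For A5-res against shCtrl, again 0 members were called with or without the block, with DESeq2 or with limma-voom, and 0 had an unadjusted p under 0.05 (0% of all genes called, 0.0069% with the block). The median was 0.01, 23 of 39 were positive (47.3% of all genes) and 2 did not overlap (10.1%). Core and regulatory medians were 0.16 and 0.09 within number 1 and -0.19 and -0.15 within number 2. PSMC6, an ATPase, was at 60.7, 59.4 and 55.2 CPM in number 1 and 48.7, 75.0 and 77.6 CPM in number 2, with a blocked difference of 0.26 (SE 0.17) made of -0.14 within number 1 and 0.67 within number 2. Its transcript PSMC6-218 took 9.5% of the counts in shCtrl replicate 1 and 45.5% in A5-res replicate 2. PSMD12 differed by 0.40 (SE 0.28), with -0.39 and 1.18 within the numbers, and PSMD1 by 0.14 (SE 0.10). The 3 comparisons share libraries and are not independent of each other.

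**Figure D4:**
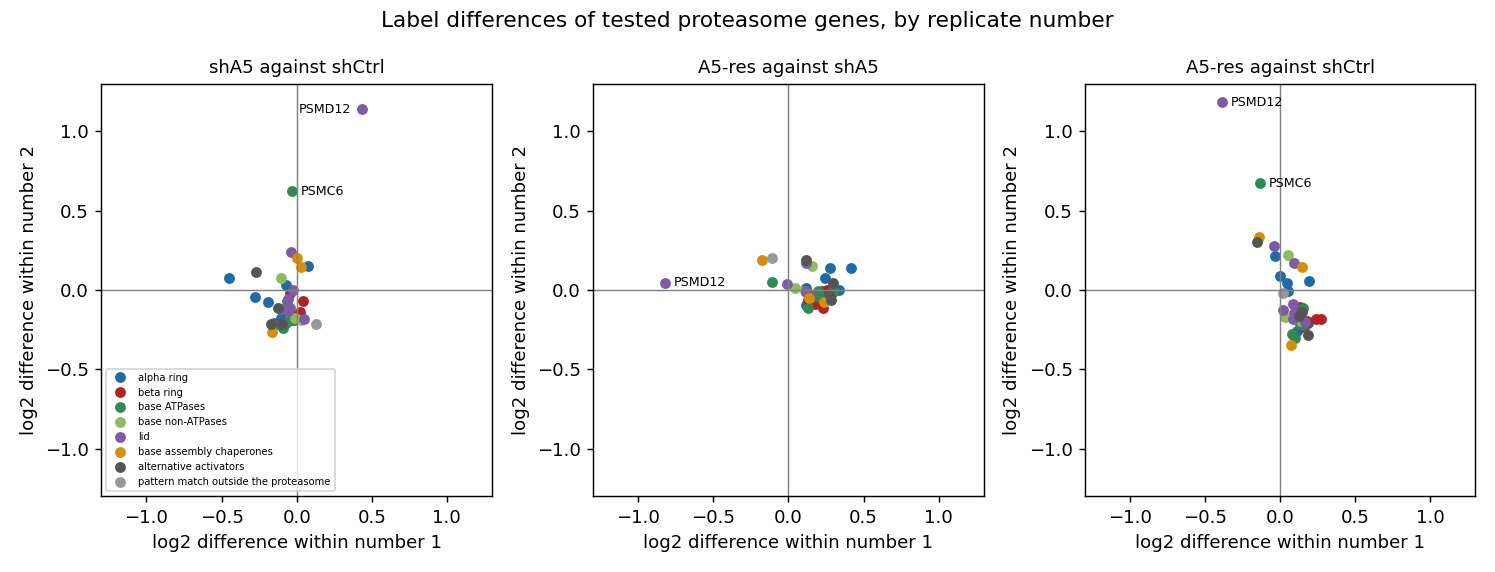
Each point is a tested gene, coloured by role, and each panel a comparison of labels. The axes give the log2 difference within replicate number 1 and within number 2. Most points lie near 0, PSMD12 reaches 1.14 and 1.18 within number 2 in the panels against shCtrl, and in the panel of A5-res against shCtrl most points lie to the right of 0 and below it.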

How the data were processed

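Per the labels' protocols, messenger RNA was isolated with oligo-dT beads, copied with random primers and amplified by PCR, and the tools named in the submitters' processing notes are CASAVA and kallisto 0.43.1, with hg38. For each transcript the authors deposited its length and effective length, an estimated count and TPM. kallisto shares reads between similar transcripts, with a strand setting not given in the sources used here.

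The deposited estimated counts were summed per gene over GENCODE release 29, which matched 163714 of 179973 transcripts (91.0%), and rounded. Unmatched transcripts held 3.13% to 3.32% of counts and were left out. edgeR 4.0.16 in R 4.3.3 (TMM, filterByExpr, quasi-likelihood test, 6 libraries) was used with Benjamini-Hochberg adjustment over 14497 genes at 0.05, with 3 residual degrees of freedom for labels and 2 with the replicate block or for replicate number. CPM values are TMM-scaled, the deposited TPM values were used to compare levels between genes, and the procedure was tested on simulated data. SE is the absolute log2 fold change over the square root of F. Differences within a number or label are of log2 CPM with a prior count of 2.

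Deviations of same-numbered libraries from their group means correlated at 0.685, 0.597 and 0.727, and the first component (65.3% of variance) separated the numbers, which come from the titles. The main label comparisons were fitted on the label alone, without pairing. The numbers paired the libraries only in the fits with the replicate block and in the fit of replicate number. Members and lists were chosen with earlier results of these data known. Values in every library are given for up to 4 members per role by the smallest p for replicate number and for PSMB5, PSMB6 and PSMB7, the 3 members with the smallest blocked p are named per label comparison, and up to 3 genes per other list. Every other member is given by value or range. IRF1, MAFG, PSMC6-218 and the promoters printed were chosen after their values were seen. Alternatives were RLE factors, DESeq2 1.42.0, limma-voom (limma 3.58.1), other filters, protein-coding transcripts only, counts from TPM, no group term, and leaving out each library. DESeq2 and limma-voom with the block were added after the data were seen. Some results are not reported here.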

Additional observations from a re-analysis of the deposited data

Results flagged for a closer look

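Medians of A5-res against shA5 were above 0 within replicate number 1 and near 0, slightly below it, within number 2. The core particle median was 0.22 within number 1 and -0.013 within number 2, and the regulatory particle median 0.13 and -0.0081. Within number 2, 6 of 14 core genes were positive, and the alpha ring median was above 0 within both numbers (0.24 and 0.013). Against shCtrl the core median was 0.16 and -0.19, and the regulatory median 0.088 and -0.15. Each value rests on 1 library per label, and the difference between the numbers was not tested.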

How the results depend on the processing

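Between replicate numbers, leaving out each library in turn gave 8 to 19 members called against 17 with all libraries. The lowest count, 8, came without shA5 replicate 1 or shA5 replicate 2, where PSMA1, PSMA2, PSMA3, PSMA6, PSMA7, PSMB4, PSMC4, PSMD3 and PSME3 lost their calls. Leaving out either library of a label leaves the coefficient of number to the other labels, so the fits without 1 or the other are not separate checks. Other settings gave 14 to 19. PSMB2, PSMB3, PSMB5, PSMB6, PSMB7, PSMC1, PSMD8 and PSMD10 kept their calls under all 14 alternatives. The regulatory median was -0.10 with protein-coding transcripts only and -0.17 to -0.072 leaving out each library, and the core minus regulatory median, -0.13 with all libraries, was then -0.22 to -0.16. Members near no change reversed sign: PSMD1 was 0.017 with no low-count filter, 0.018 with protein-coding transcripts and 0.019 with counts from TPM, PSMD2 was 0.011 with protein-coding transcripts, and PSMD5 was 0.00095 with no filter and 0.070 with counts from TPM. PSMD13 was 0.36 with protein-coding transcripts, where it passed, and PSMA4, PSMA5, PSMD7, PSMD12, PSMD13 and PSMD14 changed sign under 1 to 4 of the 14 alternatives each. Leaving out each library gave -0.050 to 0.087 for PSMD1, -0.18 to 0.11 for PSMD5, -0.15 to 0.086 for PSME1, -0.096 to 0.052 for PSME2 and -0.15 to 0.13 for PSME4. Between labels it gave -0.38 to 0.0032 for PSMC1 (shA5 against shCtrl), -0.028 to 0.46 for PSMA1 and -0.098 to 0.43 for PSME3 (A5-res against shA5), and -0.13 to 1.01 for PSMD12 (A5-res against shCtrl). The cause was not tested. With the replicate block 0 members were called in each label comparison, as in all 16 alternatives. Of 392 values of 28 named members for replicate number, 348 kept direction and side of the threshold. Reads carried no molecular identifiers, and the estimated counts of low genes such as PSMD10 (170 to 480 per library) limit their precision.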

Other observations

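The annotation holds 32 pseudogenes with names of proteasome genes, of which 10 had at least 1 estimated count over all libraries and 1 was tested. PSMC1P1, a copy of the ATPase gene PSMC1, was at 7.16, 10.00 and 14.2 CPM in shCtrl, shA5 and A5-res replicate 1 and at 8.03, 6.93 and 8.18 CPM in replicate 2. Its numbers overlapped and it did not pass between them (-0.41, edgeR adjusted p = 0.098). How reads were shared between PSMC1 and its copy was not tested.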
